A study of Arabidopsis thaliana with 12 samples.

Results

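Messenger RNA was compared between the polysomal (PL) and the non-polysomal (NP) part of sucrose gradients from wild-type (WT) Arabidopsis thaliana seedlings. The comparison took every array of the series labelled WT, 6 of 12, namely 3 PL and 3 NP arrays joined by replicate number, and all 22746 probe sets of the ATH1 GeneChip that are not array controls. WT stands for the ecotype Columbia with no transgene, and the samples were aerial parts of seedlings 11 days old, which the labels place under long days of 16 h light with harvest 4 h after lights on. The other 6 arrays hold the same pair of fractions from eif3k, a T-DNA insertion line in the gene for subunit k of the translation initiation factor eIF3, with the same ecotype, tissue and age. They entered only through the estimate of the spread between pairs. For PL the bottom 6 gradient fractions were pooled and for NP the top 6, so NP holds free messenger ribonucleoprotein together with single ribosomes.

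An mRNA that carries several ribosomes at a time sediments towards the bottom of the gradient, while an mRNA that is stored, repressed at initiation or read by a single ribosome stays near the top. Initiation is usually the slow step, and it depends on the cap-binding and poly(A)-binding factors, on eIF3 and on the leader of the mRNA, where upstream reading frames can hold ribosomes back. The length of the reading frame also limits how many ribosomes fit. In green seedlings much of the translation serves the chloroplast, whose proteins come partly from nuclear mRNAs read in the cytosol and partly from plastid mRNAs read on the plastid's own ribosomes. The translation state (TL) was taken as the log2 PL signal minus the log2 NP signal of the same replicate, so that a TL of 1 is a signal 2 times as high in PL. Normalization put PL and NP arrays on the same overall level. A TL of 0 therefore marks the median of all probe sets, dim ones included, and not an equal split of molecules between the fractions.

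The WT libraries carried the signals of green tissue. RBCS1A, a small subunit of Rubisco, stood at log2 14.79, 14.85 and 14.77 in the 3 PL arrays, against 14.60, 14.54 and 14.43 in the NP arrays, close to the highest value of 15.55 on any array. The root hair markers COBL9, EXPA7 and RHD2 lay at the floor of the scale, 2.33, on all 6 arrays, while the epidermal markers PDF1 and LTP1 and the phloem marker SUC2 were well above it. The tissue is a mixture, and in such bulk samples fewer cells of a type and less RNA per cell cannot be told apart. Of the 22746 probe sets, 7022 had a mean log2 signal of at least 5 over the 6 WT arrays. These are called the brighter probe sets below, and class medians refer to them only, since dim probe sets sit near the floor in both fractions and pull TL towards 0.

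The third PL array stood apart before any class was considered. Across brighter probe sets, TL in replicates 1 and 2 correlated at r = 0.93, while replicate 3 correlated at 0.48 with replicate 1 and at 0.47 with replicate 2. The difference lay in the PL arrays. PL 1 and PL 2 correlated at 0.99 but each only at 0.82 with PL 3, whereas the 3 NP arrays correlated at 0.94 to 0.98. The SD of log2 signals over probe sets was 1.94 on PL 3 and 2.15 to 2.27 on the other WT arrays. The GAPDH control probe sets, which read the 3′ and the 5′ end of the same mRNA, gave a 3′ minus 5′ difference of 5.67, 5.95 and 8.98 in PL 1, 2 and 3, against 7.29, 6.86 and 7.97 in NP 1, 2 and 3. Per the labels the arrays of replicate 3 were run at another time than those of replicates 1 and 2 and resemble these less, so the run and the replicate cannot be told apart. Median TL of the brighter probe sets was 0.05 in replicate 1, 0.11 in replicate 2 and −0.44 in replicate 3, so values of each replicate are given below and read against these medians, and calls are also given without replicate 3.

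**Figure D1:**
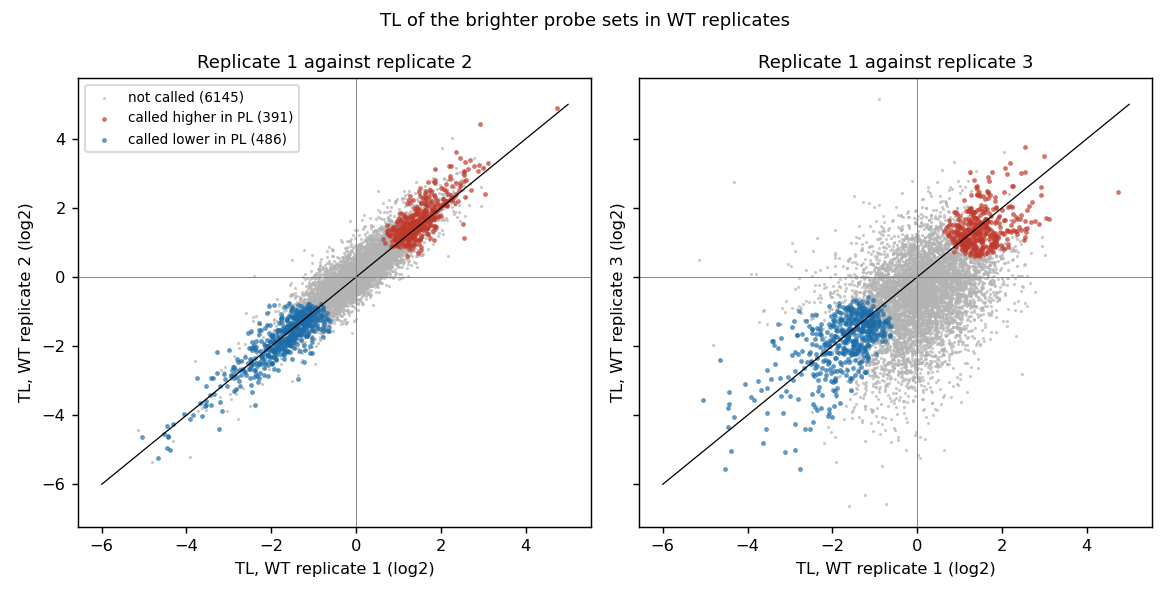
TL of each brighter probe set in WT replicate 2 (left panel) and replicate 3 (right panel), both on the vertical axis, against WT replicate 1 on the horizontal axis, in log2 units, with probe sets called higher or lower in PL coloured. Replicate 2 follows replicate 1 closely (r = 0.93), while replicate 3 is more scattered (r = 0.48) and lies lower.

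In WT seedlings 1100 probe sets differed between PL and NP by at least 1 on the log2 scale (limma, adjusted p under 0.05), of which 458 (2.01% of those tested) were higher and 642 (2.82%) were lower in PL. All 1100 had the same sign in the 3 WT pairs, which the thresholds of a call favour. Of all brighter probe sets 55.6% had the same sign in the 3 pairs and 86.2% in replicates 1 and 2. Among the brighter probe sets, 391 (5.57%) were higher and 486 (6.92%) were lower. Without WT replicate 3 the calls came to 1550, with 855 higher and 695 lower, or 730 (10.4%) and 507 (7.22%) of the brighter probe sets. Quantile normalization also turned the split, to 674 higher and 582 lower. The 2 sets of calls shared 325 probe sets that were higher, 71.0% of those from all pairs and 38% of those without replicate 3, and 421 that were lower, 65.6% and 60.6%, and none was called in opposite directions. Leaving out replicate 1 left 131 calls and leaving out replicate 2 left 30, since the fit then rested on replicate 3 and 1 other pair. The 3 WT pairs fitted by themselves, with 2 residual degrees of freedom, gave 0 calls in limma after adjustment and 3287 probe sets at an unadjusted p under 0.05. The calls therefore rest on a spread shared with the eif3k pairs.

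Among single-locus, gene-specific brighter probe sets, the mRNA with the highest mean TL was that of AT1G64370, an uncharacterized protein. Its log2 signal was 10.87, 10.89 and 9.09 in PL, against 6.14, 6.00 and 6.62 in NP (mean TL 4.03 ± 0.54 SE, n = 3 pairs, adjusted p = 0.0287 in limma). Each SE here and below comes from the fit, whose spread is shared with the eif3k pairs. It is not the SE of the 3 WT pairs alone, and the values of each replicate show where these scatter more. The neighbouring locus AT1G64360 had 7.43, 6.50 and 6.64 in PL, against 4.44, 3.33 and 3.14 in NP (mean TL 3.22 ± 0.20 SE, adjusted p = 0.0083). PL and NP did not overlap for either gene, and the lowest PL value of AT1G64370 came from replicate 3. Most genes named here and below were chosen for an extreme TL. Such separation of their arrays follows in part from this choice and is only a description. Several of the next mRNAs encode small protective proteins. LEA14, a late embryogenesis abundant protein, had 9.50, 9.65 and 8.91 in PL, against 6.96, 6.60 and 5.15 in NP (mean TL 3.12 ± 0.25 SE, adjusted p = 0.0108). CYS1, a cystatin that inhibits cysteine proteases, had 10.17, 10.20 and 9.80 in PL, against 7.62, 7.13 and 6.75 in NP (mean TL 2.89 ± 0.22 SE, adjusted p = 0.0102). AT1G54410, a dehydrin, was an abundant mRNA of the same kind, with 13.52, 13.32 and 13.44 in PL, against 11.07, 10.68 and 10.44 in NP (mean TL 2.70 ± 0.17 SE, adjusted p = 0.00854). In these 3 genes the PL arrays lay within 1 log2 unit of each other, replicate 3 included. Further members of this upper end were the tonoplast aquaporin GAMMA-TIP with a mean TL of 2.61, the glutaredoxin AT1G06830 with 2.59, the lipid transfer protein AT3G18280 with 2.57, the plastid ribosomal protein PRPL11 with 2.55 and the ABA-responsive dehydrin RAB18 with 2.54, all 5 of them called with and without replicate 3.

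At the other end, differences were larger. DI19, a drought-induced zinc finger protein, had 8.15, 8.29 and 6.73 in PL, against 12.67, 12.82 and 12.29 in NP, a mean TL of −4.87 ± 0.27 SE or a signal 29.2 times lower in PL (adjusted p = 0.00745 in limma). EMB2820, whose symbol marks a gene needed for embryo development, had 4.99, 5.13 and 4.04 in PL, against 9.37, 10.14 and 9.08 in NP (mean TL −4.81 ± 0.32 SE, adjusted p = 0.00856). All 3 NP arrays of both genes exceeded the highest PL array by more than 3 log2 units. RAP2.4, an AP2/ERF transcription factor, had 4.11, 4.06 and 2.61 in PL, against 8.56, 8.37 and 6.94 in NP (mean TL −4.36 ± 0.20 SE, adjusted p = 0.0063). GUT15, a transcript annotated as a non-coding RNA, had 5.33, 6.02 and 5.71 in PL, against 10.37, 10.65 and 9.27 in NP (mean TL −4.41 ± 0.43 SE, adjusted p = 0.0157). The list also held 2 La-related RNA-binding proteins, LARP6b and LARP6a. LARP6b had 7.75, 7.61 and 7.53 in PL, against 11.59, 11.60 and 11.09 in NP (mean TL −3.80 ± 0.22 SE, adjusted p = 0.00745), and LARP6a had 6.46, 6.63 and 6.60 in PL, against 10.52, 10.59 and 9.71 in NP (mean TL −3.71 ± 0.32 SE, adjusted p = 0.0116). In both, replicate 3 gave PL values like those of replicates 1 and 2. There were 2 membrane proteins beside them, the amino acid permease AAP2 with a mean TL of −3.90 and the receptor-like kinase PERK10 with −3.77, the PERK10 signal in PL being 6.60, 6.16 and 2.56, so that replicate 3 carried much of its mean (−2.88 without it).

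**Figure D2:**
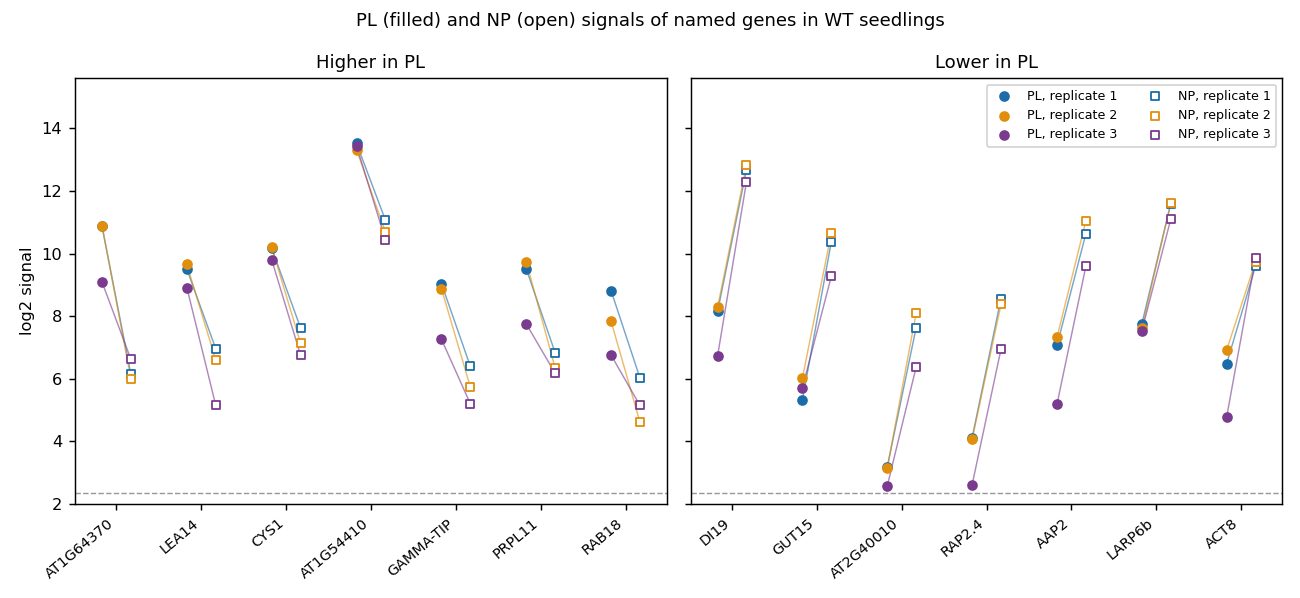
Log2 signal on each WT array (vertical axis) for 7 genes with a high mean TL (left panel) and 7 with a low one (right panel), PL as filled circles and NP as open squares, coloured by replicate and joined within a pair, with the floor of the scale dashed. PL and NP do not overlap for any gene shown, which follows in part from the choice of genes by their TL. PL 3 is often the lowest PL value, as for AT1G64370 (9.09) and RAP2.4 (2.61).

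To describe which kinds of mRNA were well or poorly loaded, probe sets were sorted into 76 classes by their annotation, 4193 probe sets falling in at least 1 class. Of the 68 classes with 5 or more brighter members, 24 had a median TL above that of all brighter probe sets in each of the 3 WT replicates, and 24 had a median below it in each. Across the 68 classes the order of medians was nearly the same in replicates 1 and 2 (Spearman rho 0.97), and replicate 3 followed it at 0.72 and 0.71. Medians cover the brighter members and not the class as a whole. Counts of calls are likewise over brighter members unless stated. Of all brighter probe sets 5.57% were called higher and 6.92% lower, or 10.4% and 7.22% without replicate 3, and counts in a class are to be read against these shares.

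**Figure D3:**
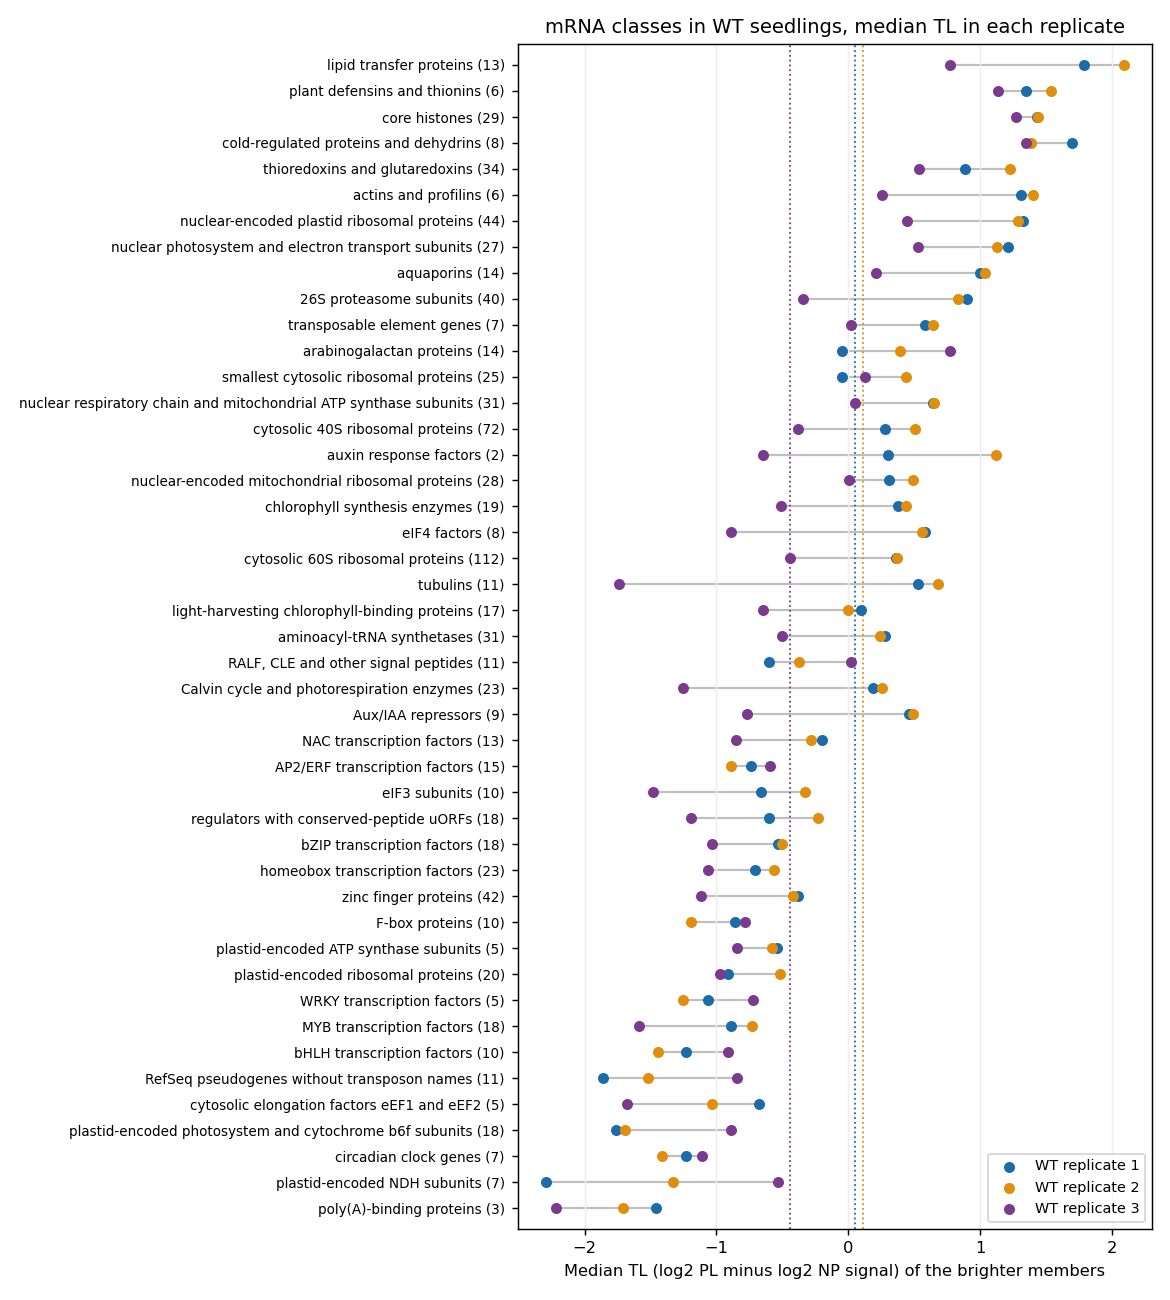
Median TL of brighter members for mRNA classes, from the highest mean to the lowest, in log2 units, with a symbol for each WT replicate, dotted lines for the median of all brighter probe sets in that replicate, and the number of brighter members in brackets. Lipid transfer proteins, core histones, nuclear-encoded plastid ribosomal proteins and nuclear photosystem subunits sit above the lines in all 3 replicates, and MYB factors, plastid-encoded photosystem genes and poly(A)-binding proteins sit below them.

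Core histones, the proteins that package DNA, were among the best loaded mRNAs. Of 39 histone probe sets on the array 29 were brighter, and 21 of these 29 were called higher and 0 lower, against 5.57% and 6.92% of all brighter probe sets. Their median TL was 1.43, 1.44 and 1.27 in replicates 1, 2 and 3, against 0.05, 0.11 and −0.44 for all brighter probe sets, and 27 of 29 were above 0 in all 3 pairs. HTB2, an H2B, had 7.98, 8.45 and 7.63 in PL, against 5.84, 6.38 and 5.60 in NP (mean TL 2.08 ± 0.12 SE, adjusted p = 0.00745 in limma). AT5G10390, an H3, had 8.25, 8.88 and 6.99 in PL, against 5.89, 6.15 and 5.74 in NP (mean TL 2.11 ± 0.32 SE, adjusted p = 0.0353). The PL values of both genes exceeded all of their NP values. By histone kind, called members came to 7 of 12 for H2A, 7 of 7 for H2B, 3 of 5 for H3 and 4 of 5 for H4. The 8 brighter members not called ran from −0.98 for HTA9, an H2A.Z, and 0.49 for the DNA damage variant H2AXA to 1.54 and held standard as well as variant histones. Without replicate 3 the count was again 21.

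By the median of mean TL, the highest classes were lipid transfer proteins (1.56) and defensins and thionins (1.51), both short secreted proteins. Core histones (1.40) and cold-regulated proteins and dehydrins (1.39) were close behind and exceeded both in replicate 3. Lipid transfer proteins, which bind lipids outside the cell, had a median TL of 1.79, 2.09 and 0.77 in replicates 1, 2 and 3 over 13 brighter members of 25. Of the 13, 6 were called higher and 0 lower, against 5.57% and 6.92% of all brighter probe sets. Without replicate 3, 9 were higher, but the share of all brighter probe sets called higher also rose, to 10.4%. AT5G01870, a lipid transfer protein, had 7.91, 8.33 and 8.01 in PL, against 5.32, 5.51 and 6.07 in NP (mean TL 2.45 ± 0.22 SE, adjusted p = 0.0125). The lowest value of this class, −0.89, belonged to CER3, a wax synthesis protein that the older array annotation grouped with lipid transfer proteins. Defensins and thionins, small antimicrobial peptides, had a median of 1.35, 1.54 and 1.14 over 6 brighter members of 20. Of the 6, LCR68, THI2.2 and AT1G66100 were called higher, the last 2 of them named after their values were seen. LCR68 had 9.22, 9.46 and 9.32 in PL, against 7.76, 7.64 and 6.87 in NP (mean TL 1.91 ± 0.22 SE, adjusted p = 0.0219). Its relative LCR69 reached a mean TL of 1.66 but was not called. Not all secreted classes were like this. Arabinogalactan proteins of the cell surface had a median of −0.05, 0.39 and 0.77 over 14 brighter members, and RALF, CLE and other signal peptides had −0.60, −0.37 and 0.02 over 11, with 0 called higher and 1 lower.

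Cold-regulated proteins and dehydrins, which protect cells under water loss, had a median TL of 1.70, 1.39 and 1.35 over 8 brighter members of 19, of which 3 were called higher and 0 lower, and 4 higher without replicate 3. The shares over all brighter probe sets were 5.57% higher and 6.92% lower, and 10.4% higher without replicate 3. ERD10 had 8.33, 7.88 and 8.12 in PL, against 6.40, 5.92 and 6.35 in NP (mean TL 1.89 ± 0.11 SE, adjusted p = 0.00745), so that the spread between pairs was small beside the difference. KIN1 stood lower, with a mean TL of 0.55 that was not called. Thioredoxins and glutaredoxins, which reduce disulfide bonds, had a median of 0.89, 1.23 and 0.54 over 34 brighter members of 55, and 11 of the 34 were called higher and 0 lower. The glutaredoxin AT2G20270 had 7.03, 7.10 and 5.14 in PL, against 4.15, 4.04 and 3.61 in NP (mean TL 2.49 ± 0.35 SE, adjusted p = 0.0315). The class was not uniform, since ACHT4 had a mean TL of −1.14 and AT1G77370 of −1.54, neither of them called. Among aquaporins, which carry water through membranes, 4 of 14 brighter members were called higher and 0 lower, with a median of 1.00, 1.04 and 0.21. The plasma membrane aquaporin PIP1C had 10.32, 10.03 and 10.22 in PL, against 8.63, 8.77 and 8.36 in NP (mean TL 1.60 ± 0.16 SE, adjusted p = 0.0164).

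Photosystem mRNAs divided by the genome that encodes them. Nuclear mRNAs for photosystem subunits, electron carriers and the plastid ATP synthase had a median TL of 1.21, 1.13 and 0.53 in replicates 1, 2 and 3 over 27 brighter members, and 9 of the 27 were called higher and 0 lower, with 20 above 0 in all 3 pairs. Without replicate 3, 13 were called higher. Of all brighter probe sets 5.57% were higher and 6.92% lower, and 10.4% were higher without replicate 3. PSAH-1, a photosystem I subunit, had 12.94, 12.95 and 13.19 in PL, against 11.16, 11.02 and 11.22 in NP (mean TL 1.89 ± 0.17 SE, adjusted p = 0.0133). FD1, a ferredoxin, had 11.81, 12.03 and 11.65 in PL, against 10.21, 10.14 and 10.35 in NP (mean TL 1.60 ± 0.12 SE, adjusted p = 0.00987). In both genes all 3 PL arrays lay more than 1 log2 unit above the NP arrays. FNR2, a ferredoxin reductase, was an exception with a mean TL of −0.98, not called. The light-harvesting proteins, which belong to the same complexes, had a median of only 0.10, 0.00 and −0.65 over 17 members, with 0 called in either direction, from −1.10 for AT1G76570 to 0.91 for LHCB4.3. RBCS1A, whose signal lay near the upper end of the scale, had a mean TL of 0.28.

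Plastid-encoded mRNAs lay on the other side. Photosystem and cytochrome b6f genes of the plastid genome had a median TL of −1.76, −1.69 and −0.89 over 18 brighter members of 23, with 4 called lower and 0 higher. Among all brighter probe sets 6.92% were lower and 5.57% higher. By complex, the median of mean TL was −1.46 for photosystem I, −1.35 for photosystem II and −2.04 for cytochrome b6f. petB, cytochrome b6, had 9.49, 9.01 and 7.25 in PL, against 11.74, 11.53 and 10.67 in NP (mean TL −2.73 ± 0.36 SE, adjusted p = 0.0275), and it was not called without replicate 3 (adjusted p = 0.0547). psaB, a photosystem I core protein, was at −0.70 and not called. psbN, listed with photosystem II, showed how far replicate 3 could depart, with a TL of −3.91, −5.22 and 0.10 in replicates 1, 2 and 3. NDH subunits of the plastid had a median of −2.29, −1.33 and −0.53 over 7 brighter members, and plastid ATP synthase subunits had −0.54, −0.58 and −0.84 over 5, with 0 called in either class. In atpB the mean of −1.55 came from replicate 3 alone, with a TL of 0.02, 0.47 and −5.14. The arrays were labelled for polyadenylated mRNA, and in plastids short poly(A) tails mark RNAs for decay, so the plastid transcripts measured may not represent the pool being translated.

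Ribosomal proteins showed the same division. The 44 brighter nuclear mRNAs for plastid ribosomal proteins, of 49 on the array, had a median TL of 1.33, 1.29 and 0.45, with 12 called higher and 0 lower (18 and 0 without replicate 3). Over all brighter probe sets the shares were 5.57% and 6.92%, or 10.4% and 7.22% without replicate 3. PRPL11 had 9.51, 9.74 and 7.75 in PL, against 6.83, 6.34 and 6.17 in NP (mean TL 2.55 ± 0.36 SE, adjusted p = 0.0317). PRPL35 had 10.11, 10.16 and 8.69 in PL, against 7.56, 7.20 and 7.08 in NP (mean TL 2.37 ± 0.29 SE, adjusted p = 0.0244). In both, PL 3 was the lowest PL array and still exceeded every NP array. The lowest member, emb2394, had a mean TL of −1.30 that was not called and that was −0.47 without replicate 3. The plastid-encoded proteins of the same ribosome had a median of −0.91, −0.52 and −0.97 over 20 brighter members, with 4 called lower and 0 higher, from −1.96 for rpl32 to 0.39 for rps19, neither of these 2 called. Nuclear mRNAs for mitochondrial ribosomal proteins were nearer the average, with a median of 0.31, 0.49 and 0.01 over 28 brighter members and 2 called higher.

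**Figure D4:**
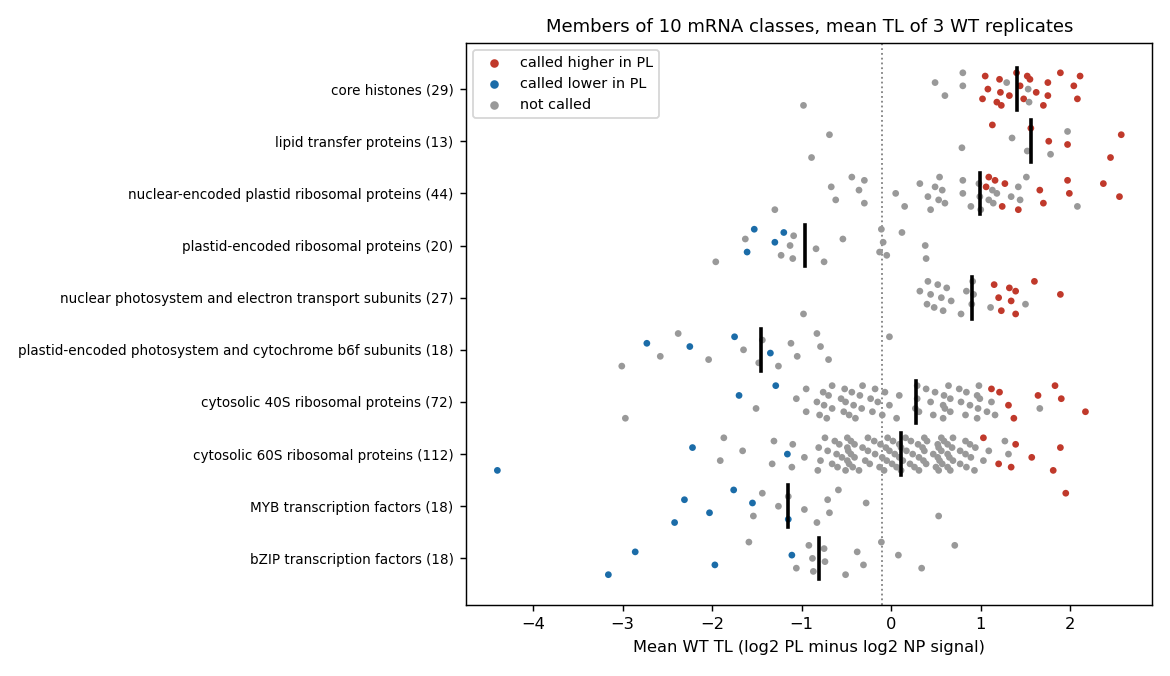
Mean TL over the 3 WT pairs, in log2 units, of each brighter member of 10 classes, with members called higher in PL in red, called lower in blue and not called in grey, class medians as bars and the median of all brighter probe sets dotted. The medians of nuclear and plastid-encoded genes lie on opposite sides of the dotted line for the photosystems and for the plastid ribosome, and cytosolic ribosomal proteins spread over both sides.

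Cytosolic ribosomal proteins lay only slightly above the average mRNA. The 40S proteins had a median TL of 0.28, 0.51 and −0.38 over 72 brighter members of 86, with 8 called higher and 2 lower, and the 60S proteins had 0.36, 0.37 and −0.44 over 112 of 130, with 7 higher and 3 lower. Without replicate 3 the counts were 15 higher and 2 lower for 40S and 18 higher and 4 lower for 60S. Shares over all brighter probe sets were 5.57% higher and 6.92% lower, or 10.4% and 7.22% without replicate 3. The 25 brighter mRNAs for the smallest of these proteins, whose reading frames have room for few ribosomes, had a median of −0.05, 0.44 and 0.13. Behind these medians, copies of the same protein differed. Of 59 families with at least 2 brighter, gene-specific copies, 31 had a range of mean TL above 1, the median range being 1.01 and the extremes 0.02 and 4.28. No family had copies called in both directions.

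The acidic stalk of the large subunit, which recruits translation factors, held both ends of the 60S class. Both copies of P3 were higher in PL. AT5G57290 had 9.78, 10.05 and 9.93 in PL, against 8.19, 7.92 and 7.97 in NP (mean TL 1.89 ± 0.14 SE, adjusted p = 0.00931), and AT4G25890 had 7.83, 8.10 and 8.09 in PL, against 6.22, 6.15 and 6.22 in NP (mean TL 1.81 ± 0.10 SE, adjusted p = 0.00745). The spread between arrays of a fraction was small for both, and PL and NP were far apart. P0, which anchors the stalk, was lower in 2 of the 3 brighter, gene-specific copies that the study lists for it. AT3G09200 had 10.61, 10.75 and 9.37 in PL, against 12.60, 12.83 and 11.95 in NP (mean TL −2.22 ± 0.19 SE, adjusted p = 0.0124), and the dimmer AT2G40010 had 3.18, 3.14 and 2.57 in PL, against 7.63, 8.10 and 6.37 in NP (mean TL −4.40 ± 0.47 SE, adjusted p = 0.0182). The remaining copy of these 3, AT1G25260, was at −1.31 and not called. In 40S families the widest range was that of S12, where AT1G80800, which RefSeq lists as a transcribed pseudogene, had a mean TL of −2.97 and was called lower only without replicate 3 (adjusted p = 0.0251), while AT2G32060 was at 1.31. In S15a, RPS15A had 11.51, 11.36 and 10.54 in PL, against 12.92, 13.12 and 12.47 in NP (mean TL −1.70 ± 0.14 SE, adjusted p = 0.011), while AT5G59850 was at 0.99. AT1G25260, AT2G32060 and AT5G59850 were chosen after their values were seen. Of the 3 copies of L24 2 were higher, STV1 (RPL24B) with a mean TL of 1.34 ± 0.10 SE (adjusted p = 0.0102) and RPL24A with 1.39 ± 0.23 SE (adjusted p = 0.0424), while AT2G44860 (RPL24C) was at −0.26, not called and turned by replicate 3 (0.69 without it). L24 helps ribosomes to reinitiate after an upstream reading frame.

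Several translation factors were poorly loaded. Poly(A)-binding proteins, which join the tail of an mRNA to its cap, were lower in PL for all 3 brighter genes. PAB2 had 8.84, 8.90 and 8.58 in PL, against 11.26, 11.42 and 11.11 in NP (mean TL −2.49 ± 0.22 SE, adjusted p = 0.0122). PAB4 had 8.42, 8.35 and 6.79 in PL, against 9.88, 9.76 and 9.01 in NP (mean TL −1.70 ± 0.21 SE, adjusted p = 0.0241). PAB8 had 6.94, 6.51 and 5.85 in PL, against 8.13, 8.22 and 7.70 in NP (mean TL −1.58 ± 0.25 SE, adjusted p = 0.0372), and only PAB8 lost its call without replicate 3 (adjusted p = 0.093). PL and NP did not overlap in any of the 3 genes.

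Subunits of elongation factor eEF1B, which recharges eEF1A with GTP, were also lower. AT2G18110 had 10.37, 10.38 and 10.27 in PL, against 12.16, 12.33 and 11.83 in NP (mean TL −1.77 ± 0.13 SE, adjusted p = 0.00931), and AT1G09640 had 10.93, 11.01 and 9.10 in PL, against 12.23, 12.26 and 11.52 in NP (mean TL −1.66 ± 0.26 SE, adjusted p = 0.0373). Both probe sets are marked as matching several transcripts. eEF1A itself, read by a probe set shared between its genes and named here by AT5G60390, had a TL of 0.99, 1.16 and −1.68 in replicates 1, 2 and 3, and its direction depended on replicate 3. Subunits of eIF3 had a median of −0.66, −0.33 and −1.48 over 10 brighter members with 0 called. AT3G02200 was the lowest of these at a mean TL of −2.25, then TRIP-1 at −1.57, and EIF3G1 the highest at 0.73. Without replicate 3 AT3G02200 was called lower and EIF3G1 higher. The eIF4 group, which recognizes and unwinds the cap end, had a median of 0.58, 0.56 and −0.89 over 8 brighter members with 0 called, and the cap-binding protein EIF4E, at 1.46, was called higher only without replicate 3 (2.31). Aminoacyl-tRNA synthetases, which charge tRNAs, were near the average with a median of 0.28, 0.24 and −0.50 over 31 brighter members, 0 of them called higher and 2 lower, among these EMB2369, a leucyl-tRNA synthetase, at −1.73. The shares over all brighter probe sets were 5.57% higher and 6.92% lower.

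Most families of transcription regulators lay below the average mRNA, 8 of the 10 examined having a median TL under that of all brighter probe sets in each replicate. Together these families, zinc finger proteins included, held 696 probe sets, of which 155 were brighter, with a median TL of −0.55, −0.51 and −1.0 in replicates 1, 2 and 3, against 0.05, 0.11 and −0.44 for all brighter probe sets. Of the 155, 3 (1.94%) were called higher and 27 (17.4%) lower, against 5.57% and 6.92% of all brighter probe sets. In all 3 pairs 93 were below 0 and 12 above 0. Of the brighter members, MYB factors had 6 lower and 1 higher of 18, zinc finger proteins 8 lower and 1 higher of 42, bZIP factors 4 lower and 0 higher of 18, homeobox factors 4 lower and 1 higher of 23, bHLH factors 3 lower and 0 higher of 10, and AP2/ERF factors 2 lower and 0 higher of 15. None was called among 5 WRKY factors, 13 NAC factors, 9 Aux/IAA repressors and 2 auxin response factors. The auxin families were the exceptions, but only in replicates 1 and 2. Aux/IAA repressors had a median of 0.46, 0.49 and −0.77, and 3 of them were called higher without replicate 3. Their median of mean TL was −0.31, against −0.10 for all brighter probe sets. Auxin response factors had 0.30, 1.12 and −0.65, but only 2 of 19 probe sets were brighter, and 2 dim ones were called lower.

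Among single regulators, ZFN3, a zinc finger protein, had 5.54, 5.38 and 4.92 in PL, against 8.35, 8.27 and 8.44 in NP (mean TL −3.07 ± 0.18 SE, adjusted p = 0.00745). ATH1, a homeobox factor of shoot development, had 6.23, 6.25 and 6.23 in PL, against 8.35, 8.34 and 7.83 in NP (mean TL −1.94 ± 0.18 SE, adjusted p = 0.0133). MYB48 had 3.57, 3.68 and 4.92 in PL, against 6.51, 6.54 and 6.37 in NP (mean TL −2.42 ± 0.36 SE, adjusted p = 0.0343). In each, the groups were apart by more than 1 log2 unit, and the direction was that of the family. ABF3, a bZIP factor of abscisic acid responses, had 4.72, 4.01 and 3.56 in PL, against 7.18, 7.35 and 7.23 in NP (mean TL −3.16 ± 0.41 SE, adjusted p = 0.0272), but was not called without replicate 3 (adjusted p = 0.0658). EBP, an AP2/ERF factor, had 9.07, 8.77 and 10.41 in PL, against 12.60, 12.63 and 11.76 in NP, and was called lower only without replicate 3 (adjusted p = 0.0242). The few regulators that were higher in PL included RL6, a short MYB-like protein, with 6.10, 6.11 and 6.71 in PL, against 4.27, 3.35 and 5.44 in NP (mean TL 1.95 ± 0.30 SE, adjusted p = 0.0373). The others were the zinc finger protein AT3G15680 with a mean TL of 1.95 and the homeobox factor HB-7 with 1.12, HB-7 losing its call without replicate 3.

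Clock genes, which hold the daily rhythm, had a median TL of −1.23, −1.41 and −1.11 over 7 brighter members of 17. FKF1, a blue-light receptor of the flowering pathway, had 5.90, 5.10 and 6.80 in PL, against 8.29, 7.78 and 7.91 in NP (mean TL −2.06 ± 0.37 SE, adjusted p = 0.0498), close to the threshold and on a probe set that may read more than 1 transcript. It was the only 1 of the 17 called, and PRR7, a repressor of the clock, stood at −2.68 without a call. These values belong to a single time of day. For the classes of this paragraph, the shares over all brighter probe sets were 5.57% higher and 6.92% lower. F-box proteins, which mark other proteins for degradation, had 2 called lower and 0 higher of 10 brighter members, with a median of −0.86, −1.19 and −0.78. Regulators whose leaders hold an upstream reading frame for a conserved peptide had a median of −0.60, −0.23 and −1.19 over 18 brighter members of 22, with 2 lower and 0 higher. BZIP53 had 7.57, 7.83 and 6.87 in PL, against 9.67, 9.21 and 9.31 in NP (mean TL −1.97 ± 0.22 SE, adjusted p = 0.0203). The textbook members of this class had a mean TL of −0.88 for GBF6 (bZIP11), −1.06 for SAMDC and −0.42 for XPL1, none of them called. The median of mean TL was −0.79 for the class and −0.10 for all brighter probe sets, so only XPL1 was nearer the average than the class. The bZIP members count in both classes.

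Few pseudogenes gave a signal, and those called were lower in PL. Of 659 probe sets at RefSeq pseudogenes without transposon names, only 11 were brighter, with a median TL of −1.86, −1.52 and −0.84. Of the 11, 3 were called lower and 0 higher, and 5 lower without replicate 3. Shares over all brighter probe sets were 5.57% higher and 6.92% lower, and 7.22% lower without replicate 3. ML3 had 3.93, 3.45 and 2.85 in PL, against 7.09, 7.34 and 6.80 in NP (mean TL −3.67 ± 0.22 SE, adjusted p = 0.00745). AT1G35612 had 4.42, 5.40 and 5.26 in PL, against 8.18, 8.32 and 8.27 in NP (mean TL −3.23 ± 0.28 SE, adjusted p = 0.0117). Both were separated in every pair by almost 3 log2 units or more, as was the non-coding GUT15. Probe sets that the array annotation describes as transposable elements were divided, with a median of 0.58, 0.64 and 0.02 over 7 brighter members of 458. In all 3 pairs 4 of the 7 were above 0 and 3 below 0, the lowest mean TL being −1.78. Of the 7, 3 were called higher and 0 lower. Of the 458, 3 were higher and 2 lower, against 2.01% and 2.82% of all probe sets tested. The list is also mixed, since the epidermal protein gene PDF1, with a mean TL of 1.50, is among the 3 called higher.

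Cytoskeletal mRNAs differed within their families. Profilins, which bind actin monomers, were higher in PL, with a mean TL of 1.37 for PRF1 and 1.30 for PFN2. The actin gene ACT8 was among the poorest loaded mRNAs, with 6.48, 6.92 and 4.78 in PL, against 9.60, 9.74 and 9.85 in NP (mean TL −3.67 ± 0.47 SE, adjusted p = 0.0265), and ACT2, at −1.55, was called lower only without replicate 3. The actin control probe sets of the array read differently, with a TL of 0.98, 1.16 and −0.10 at the 3′ end. In the middle they had 1.42, 1.59 and −1.55, so actin probe sets lay on both sides of 0 in replicates 1 and 2. Tubulins, which form microtubules, varied between genes. The 5 alpha-tubulin probe sets had a median TL of −0.61, −0.67 and −4.11 in replicates 1, 2 and 3, and the 6 brighter beta-tubulin probe sets had 0.76, 0.88 and −0.91, with 0 called in either group. The types overlapped, since TUB4 had −1.03, −0.76 and −3.84 and TUA3, chosen after its values were seen, had 1.05, 1.18 and −1.93. TUA6 had 8.97, 9.32 and 5.00 in PL, against 10.88, 11.12 and 10.35 in NP, and TUB7 had 7.55, 8.00 and 6.22 in PL, against 5.75, 6.10 and 6.87 in NP. Without replicate 3, TUA6 was called lower (TL −1.85, adjusted p = 0.00811) and TUB7 higher (TL 1.85, adjusted p = 0.034). In both types it was PL 3 that fell away from the other PL arrays.

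Other classes depended on replicate 3 in the same manner. The 26S proteasome, which degrades marked proteins, had a median TL of 0.90, 0.83 and −0.34 over 40 brighter members, and 0 were called with all pairs but 10 were called higher without replicate 3. PAD1, a core subunit, had 7.35, 7.46 and 4.33 in PL, against 4.88, 4.64 and 4.59 in NP. Calvin cycle and photorespiration enzymes, which fix carbon and recover what Rubisco loses to oxygen, had a median of 0.19, 0.26 and −1.25 over 23 brighter members, with 0 called higher and 1 lower. RCA, the activase of Rubisco, had 13.93, 13.97 and 10.94 in PL, against 13.60, 13.58 and 13.54 in NP, so that 2 pairs lay just above 0 and replicate 3 far below. The photorespiratory enzyme GOX2 had a TL of 0.07, 0.04 and −5.25, and the epimerase RPE of the Calvin cycle had 0.06, −0.25 and −4.64. Respiratory chain subunits kept above the average in each replicate, at 0.64, 0.65 and 0.05 over 31 brighter members. Of the 31, 3 were called higher, among them a probe set of the succinate dehydrogenase subunit SDH7 at a mean TL of 1.42 ± 0.10 SE (adjusted p = 0.00924). Another brighter probe set with the name SDH7 had a TL of 0.13, 0.53 and 0.14 and was not called. For the classes of this paragraph, the shares over all brighter probe sets were 5.57% higher and 6.92% lower, or 10.4% and 7.22% without replicate 3. In chlorophyll synthesis 3 of 19 brighter members were called higher, with CHLI2, a subunit of the magnesium chelatase, at 2.33 (not called without replicate 3), HEMB1, an early enzyme of the pathway, at 1.63, and the later enzyme CHLM at −0.97 without a call.

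Since the reading frame limits the number of ribosomes, TL was also set against the RefSeq gene length, the genomic span with introns. Protein lengths were not used here. Across 6874 brighter protein-coding probe sets TL fell with gene length in each WT replicate, with a Spearman rho of −0.21 in replicate 1, −0.20 in replicate 2 and −0.35 in replicate 3, a description across genes that share arrays. Genes shorter than 750 bp (117 probe sets) had a median TL of 0.14, 0.23 and 0.80, and 18.8% of them were called higher and 4.27% lower. Genes of 1500 to 2000 bp (1326) had 0.30, 0.40 and −0.17, with 8.07% higher and 5.13% lower. Genes of 6000 bp or more (223) had −0.38, −0.28 and −0.96, with none higher and 6.73% lower. In replicates 1 and 2 the shortest genes lay only a little above the average and the decline began beyond 2000 bp, while in replicate 3 it ran over the whole range. In the eif3k pairs rho was −0.13, −0.13 and 0.01. Core histones had a median gene length of 972 bp and lipid transfer proteins of 1090 bp, and their medians of 1.43 and 1.79 in replicate 1 were above the 0.25 and 0.27 of the length bins around them.

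**Figure D5:**
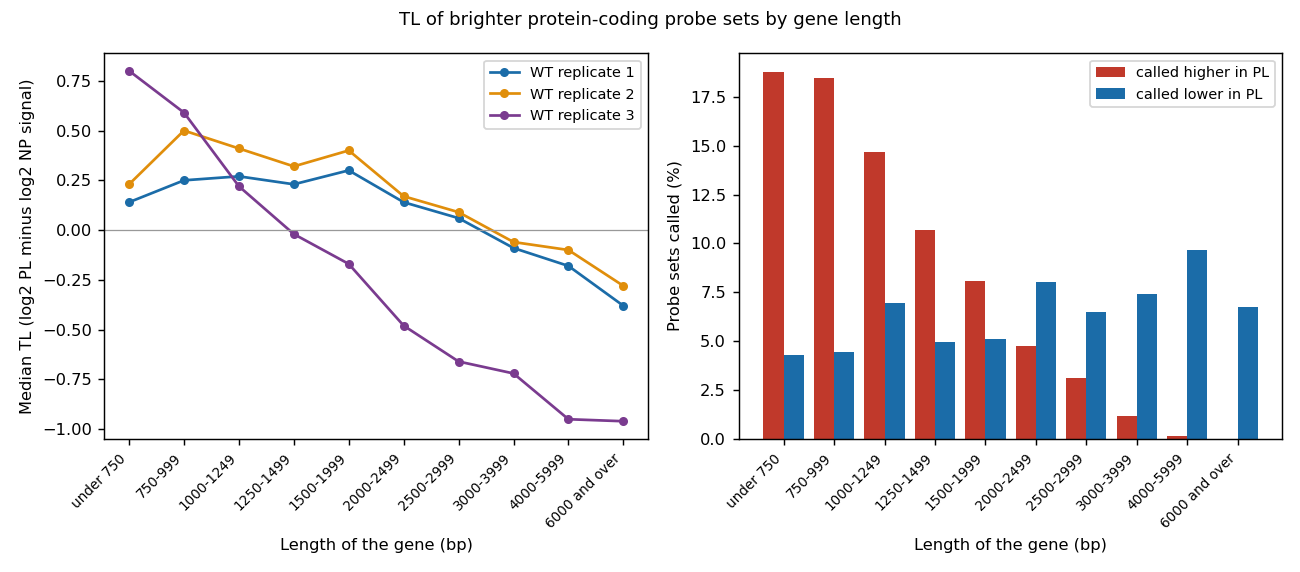
Median TL of brighter protein-coding probe sets, in log2 units, by bins of RefSeq gene length in bp, with a line for each WT replicate (left panel), and the percentage of probe sets called in each direction (right panel). The median in genes of 6000 bp or more is −0.38 in replicate 1 and −0.28 in replicate 2, and replicate 3 declines over the whole range, with 0.80 in genes shorter than 750 bp and −0.96 in the longest, while the share called higher is 18.8% in the shortest bin and 0 in the longest.

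TL differed with the position of the probes within an mRNA, for GAPDH in every WT replicate. In replicates 1 and 2 its 3′ end had the lowest TL, and in replicate 3 the highest. For GAPDH, TL at the 3′ end was 0.01, 0.53 and 0.15 in replicates 1, 2 and 3, while in the middle it was 1.50, 1.60 and −2.12 and at the 5′ end 1.63, 1.44 and −0.86. For actin the 3′ end gave 0.98, 1.16 and −0.10 and the middle 1.42, 1.59 and −1.55. For ubiquitin the middle gave 0.29, 0.15 and −1.73. All of these values were above 0 in replicates 1 and 2, and away from the 3′ end all were below 0 in replicate 3, and the part of this in the length relation and in single genes was not tested. The share of calls also moved with the signal. Among probe sets with a mean log2 of 5 to 6, 3.32% were called higher and 5.41% lower, at 8 to 10 it was 10.5% and 8.60%, and at 12 or above 6.38% in each direction. Below a mean log2 of 3, 1 of 10377 was called higher and 0 lower.

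TL of the same mRNAs in eif3k resembled that of WT replicates 1 and 2 more than WT replicate 3 did. The eif3k pairs correlated with WT replicates 1 and 2 at r = 0.81 to 0.94 and with WT replicate 3 at 0.43 to 0.45. The difference in TL between WT and eif3k gave 0 calls in limma, where 612 probe sets had p under 0.05 before adjustment and none an adjusted p below 0.608. With 3 pairs each and the atypical PL 3, this does not show that the genotypes were alike.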

How the data were processed

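Aerial tissue of WT and eif3k seedlings was fractionated on sucrose gradients, and PL and NP RNA was hybridized to Affymetrix ATH1 arrays, 3 replicates per fraction and genotype. The deposited values are log2 signals that the authors normalized. GCRMA stands in the submitters' processing notes and RMA in the study's methods, with no version in the sources used here, so which background model was used is not settled. Likewise the labels give long days where the methods give continuous light for this line. The authors' column of the translation state, also deposited on the log2 scale, equalled PL minus NP within 0.01. Methods of this kind fit a model over all arrays at once, which sets the mean of PL and NP arrays alike.

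From the 22810 probe sets 64 controls were left out. Gene names came from the deposited annotation and from RefSeq (TAIR10.1), in which 22091 of 22591 single nuclear loci were found. Cross-hybridization to several transcripts is marked for 1061 probe sets. TL was fitted in limma 3.58.1 (R 4.3.3; lmFit, eBayes) over all 6 PL/NP pairs with a mean for each genotype, and the WT mean was tested against 0, two-sided, with Benjamini-Hochberg adjustment over 22746 probe sets. Probe sets with an adjusted p under 0.05 and a mean TL of at least 1 in size were called, and every p printed as adjusted comes from this fit or from the same fit without WT replicate 3. Each printed SE is that of the WT mean in the fit over all 6 pairs, so WT and eif3k pairs share its spread. PL and NP of a number come from the same gradient, which is why the pairing is part of TL. Nothing in the labels says whether replicates were separate cultures, so p-values measure only the spread between these samples, and the number of arrays limits the precision (median SE of TL 0.25 in brighter probe sets). The scripts were tested on simulated data.

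Classes were set by annotation, described by counts and medians and given no test. Members and lists were chosen with earlier results of these data known. Genes named are the 15 highest and 15 lowest called, gene-specific, single-locus brighter probe sets, the 2 highest and 2 lowest of each class and a list of standard genes, as far as the text needs them. The alternatives were leaving out a replicate, WT pairs only, no pairing, array run as a term or restricted to the earlier run, quantile normalization, median centring, sample weights, and other rules for dim or cross-hybridizing probe sets. A planned comparison with protein length could not be made without a protein table, and RefSeq gene length was used in its place after the data had been seen.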

Additional observations from a re-analysis of the deposited data

How the results depend on the processing

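The 3 WT pairs fitted alone gave 0 calls in either direction, also without replicate 3 (4628 at an unadjusted p under 0.05, an alternative chosen after seeing the data). Treating PL and NP as unpaired, with no replicate block, gave 1213 calls. Leaving out 1 WT replicate at a time gave 30 to 1550 calls, 13 to 855 higher and 17 to 695 lower. Leaving out dim probe sets gave 1665 calls with 708 higher. Centring the median TL to 0 gave 2086, with 1045 higher and 1041 lower, and sample weights, which put the weight of WT pair 3 at 0.061, gave 2664, with 1351 and 1313. The earlier array run alone gave 379 lower.

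Median TL of a class over all of its probe sets, with no minimum signal, was 0.52 for lipid transfer proteins, 0.26 for defensins and thionins, 1.22 for core histones, 0.95 for cold-regulated proteins, 0.58 for thioredoxins and glutaredoxins, 0.00 for actins and profilins, poly(A)-binding proteins, pseudogenes, transposable elements and MYB, NAC, zinc finger, homeobox and AP2/ERF proteins, −0.69 for plastid ATP synthase, −0.28 for clock genes, −0.12 for bHLH, −0.01 for WRKY, −0.03 for bZIP and −0.15 for F-box proteins. A minimum of 6 gave 1.61 for cold-regulated proteins, 0.68 for thioredoxins and glutaredoxins, 0.55 for mitochondrial ribosomal proteins, −0.93 for bHLH and for AP2/ERF −1.76 for F-box proteins and 1.14 for transposable elements, and leaving out cross-hybridizing probe sets gave −0.71 for eEF1 and eEF2. Leaving out 1 replicate at a time gave −1.75 to −0.85 for eEF1 and eEF2, −1.06 to −0.66 for plastid-encoded ribosomal proteins, −1.14 to −0.52 for plastid ATP synthase, −1.90 to −1.32 for clock genes, −1.0 to −0.38 for zinc finger proteins, −0.51 to −0.14 for NAC factors, −0.43 to 0.64 for Aux/IAA repressors, −0.49 to 0.01 for signal peptides and −0.33 to −0.21 for the gene-length rho. It turned the sign of AT5G60390 (−0.34 to 1.07), atpB (−2.56 to 0.24), RCA (−1.14 to 0.36), AT2G44860 (−0.92 to 0.69), TUA3 (−0.44 to 1.11) and GOX2 (−2.60 to 0.06). The cause was not tested. Of 46 medians recomputed, those of the classes in the text and of all brighter probe sets, none moved beyond its spread under quantile normalization or centring.

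Settings that concern protein length were not run, for want of a protein table.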

Other observations

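A few mRNAs outside the classes described above were also far from the average in WT seedlings. CAM7, a calmodulin that senses calcium, had 8.41, 8.41 and 7.08 in PL, against 5.38, 6.02 and 5.36 in NP (mean TL 2.38 ± 0.32 SE, adjusted p = 0.0293 in limma). HSC70-1, a constitutive cytosolic chaperone, had 11.27, 11.36 and 10.59 in PL, against 13.52, 13.20 and 13.22 in NP (mean TL −2.24 ± 0.18 SE, adjusted p = 0.0103). Both were called without replicate 3 as well. GAPC1, a glycolytic enzyme, had a TL of 1.70, 2.09 and −0.59 in replicates 1, 2 and 3 and was called higher only without replicate 3. The GAPDH control probe sets had 0.01, 0.53 and 0.15 at the 3′ end, against 1.50, 1.60 and −2.12 in the middle.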
